A study of Mus musculus with 2 samples.

Results

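The 8 genes of the mouse prostanoid receptor family, Ptger1, Ptger2, Ptger3, Ptger4, Ptgir, Ptgfr, Ptgdr and Tbxa2r, were followed through the cells of newborn dorsal root ganglia. They were chosen by symbol from the gene lists of both libraries, which held all 8 of them among 32285 genes. Dorsal root ganglia hold the cell bodies of sensory neurons together with the glia, connective tissue, vessels and immune cells around them. Ganglia from all axial levels were taken at postnatal day 4, dissociated, and made into 10x 3′ single-cell libraries. The flox library came from Ptges3 flox/flox mice. The cKO library came from mice labelled Dhh CRE+, Ptges3 flox/flox, so the floxed alleles were shared by both groups and the Cre was carried by 1 of them. Dhh, desert hedgehog, is active in the Schwann cell lineage, and the Ptges3 protein, p23, assists the chaperone HSP90 and is also known as a prostaglandin E synthase of the cytosol. The study asks about Schwann cell prostaglandin E2 and how excitable sensory neurons are, and the receptors are the genes through which cells of the ganglion could respond. The number of animals per library, their sex and the strain are not given in the sources used here. With 1 library per genotype there is no replicate check and no test between genotypes. All intervals are at 95% and cover counting error only, so the spread between cells and between animals is left out of those of levels and ratios.

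Prostanoids are made from arachidonic acid by cyclooxygenases and then by terminal synthases for prostaglandin E2, D2 and F2alpha, prostacyclin and thromboxane. Each acts on G protein-coupled receptors at the cell surface. Ptger1 to Ptger4 encode the prostaglandin E2 receptors EP1 to EP4. EP2 and EP4 act through the stimulatory G protein and raise cyclic AMP, EP3 acts mainly through inhibitory G proteins, and EP1 raises intracellular calcium. Ptgir encodes the prostacyclin receptor and Ptgdr the prostaglandin D2 receptor DP1, both of which raise cyclic AMP, whereas Ptgfr (prostaglandin F2alpha) and Tbxa2r (thromboxane A2) act mainly through Gq proteins. In sensory neurons prostaglandin E2 and prostacyclin are known for making nociceptors respond more readily.

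The cells analysed numbered 8107 in the flox library (median 6886 UMIs) and 7866 in the cKO library (median 4319.5 UMIs), where UMIs are unique molecular identifiers, each counting 1 captured RNA molecule. The libraries shared 16 cell barcodes among these cells. Neuron-like cells were deeper in the flox library (1514 cells, median 47547 UMIs) than in the cKO library (3040 cells, median 9074 UMIs). Of the cKO neurons, 1456 lay in sub-clusters that could not be named as a subtype, against 178 flox neurons. Oligodendrocyte-like (593) and astrocyte-like (170) cells, glia of the central nervous system, were found in the flox library and none in the cKO library. Ptges3 stood at 230 CPM (the usual depth-scaled unit, a gene summed over the cells of a class and divided by all UMIs there) in flox and 114 CPM in cKO Schwann-like cells, and at 276 and 390 CPM in neuron-like cells. Levels below are such CPM values, and no level is compared between different genes.

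The starts of 7 of the 8 genes (Ptger1 had no entry) were found in a RefSeq table for GRCm38.p6, and the 250 bases before the start are shown for 3 genes whose levels separate the 2 main kinds of nociceptor. Among the named classes and subtypes, Ptger3 and Ptgdr were both highest in the Mrgprd neurons and Ptgir in the peptidergic nociceptors. Each is written 5′ to 3′ on the gene's own strand, with every CG in capitals (Ptger3 at chr3:157566626-157566875 on the plus strand, Ptgdr at chr14:44859376-44859625 on the minus strand, Ptgir at chr7:16906240-16906489 on the plus strand).
Ptger3: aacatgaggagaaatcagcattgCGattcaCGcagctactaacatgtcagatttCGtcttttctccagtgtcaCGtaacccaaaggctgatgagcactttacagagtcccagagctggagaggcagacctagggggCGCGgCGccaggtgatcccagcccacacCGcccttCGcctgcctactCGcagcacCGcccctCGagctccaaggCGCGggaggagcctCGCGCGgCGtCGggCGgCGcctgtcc
Ptgdr: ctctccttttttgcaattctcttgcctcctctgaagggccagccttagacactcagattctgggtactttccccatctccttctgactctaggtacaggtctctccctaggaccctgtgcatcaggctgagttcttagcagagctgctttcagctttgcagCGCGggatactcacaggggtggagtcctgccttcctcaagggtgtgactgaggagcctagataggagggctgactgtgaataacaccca
Ptgir: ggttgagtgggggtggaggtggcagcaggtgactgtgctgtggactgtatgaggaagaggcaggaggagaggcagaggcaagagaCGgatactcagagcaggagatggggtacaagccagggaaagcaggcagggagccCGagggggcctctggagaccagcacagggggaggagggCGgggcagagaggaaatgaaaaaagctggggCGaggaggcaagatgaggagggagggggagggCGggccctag
The Ptger3 window held 21 CG, the Ptgdr window 2 and the Ptgir window 5. Over all 32851 windows of this length 92.1% held at least 1 CG (read the same on both strands), with a median of 6 and quartiles of 2 and 16. Among the others, CG counts were 19 for Ptger4, 10 for Ptgfr, 3 for Ptger2 and 1 for Tbxa2r. Ptger3 and Ptgdr, which shared their leading neuron subtype, thus lay far apart in CG content: 83.7% of windows held fewer CG than that of Ptger3 and 18.8% fewer than that of Ptgdr.

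In GENCODE vM21 on GRCm38 no member overlaps another. Ptgdr (chr14:44851235-44859375, minus strand) and Ptger2 (chr14:44988195-45003820, plus strand) are neighbours 128819 bases apart. Ptger3 (chr3:157566892-157645888) spans 78997 bases, of which 73309 are intronic, whereas Tbxa2r (chr10:81328731-81335172) and Ptgir (chr7:16906490-16910905) span 6442 and 4416 bases. Ptger1 lies at chr8:83666678-83672753 on the plus strand. Ptger4 (chr15:5206661-5244187, minus strand) overlaps Ttc33 over 11676 bases. No source used here says whether counting used strand, so the counts of any member, Ptger1 and Ptger4 included, could hold reads of genes that overlap it.

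Some member of the family was seen in 2379 of 8107 flox cells (29.3%) and 1729 of 7866 cKO cells (21.98%). Among neuron-like cells it was 1110 of 1514 (73.3%) and 1246 of 3040 (41.0%). Neuron-like cells held 57.8% of all UMIs of the flox cells and 71.5% of those of the cKO cells, so shares are read against these values. They held 96.3% of Ptgir UMIs in the flox library and 93.1% in the cKO library, 96.1% and 96.3% of Ptgdr, 88.4% and 91.0% of Ptger3, 86.8% and 87.4% of Ptger2, 75.2% and 84.7% of Ptgfr, 74.1% and 84.5% of Ptger1, and 65.1% and 66.5% of Ptger4. The Ptger4 shares lay near that of all UMIs, above it in flox and below it in cKO. Tbxa2r had 4.27% and 19.8% of its UMIs from neurons, far under it. The heat map of levels by class shows where each receptor stood per UMI of a class, which ranks Ptger4 first in macrophage-like cells of both libraries and Ptger1 first in oligodendrocyte-like cells of the flox library.

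**Figure D1:**
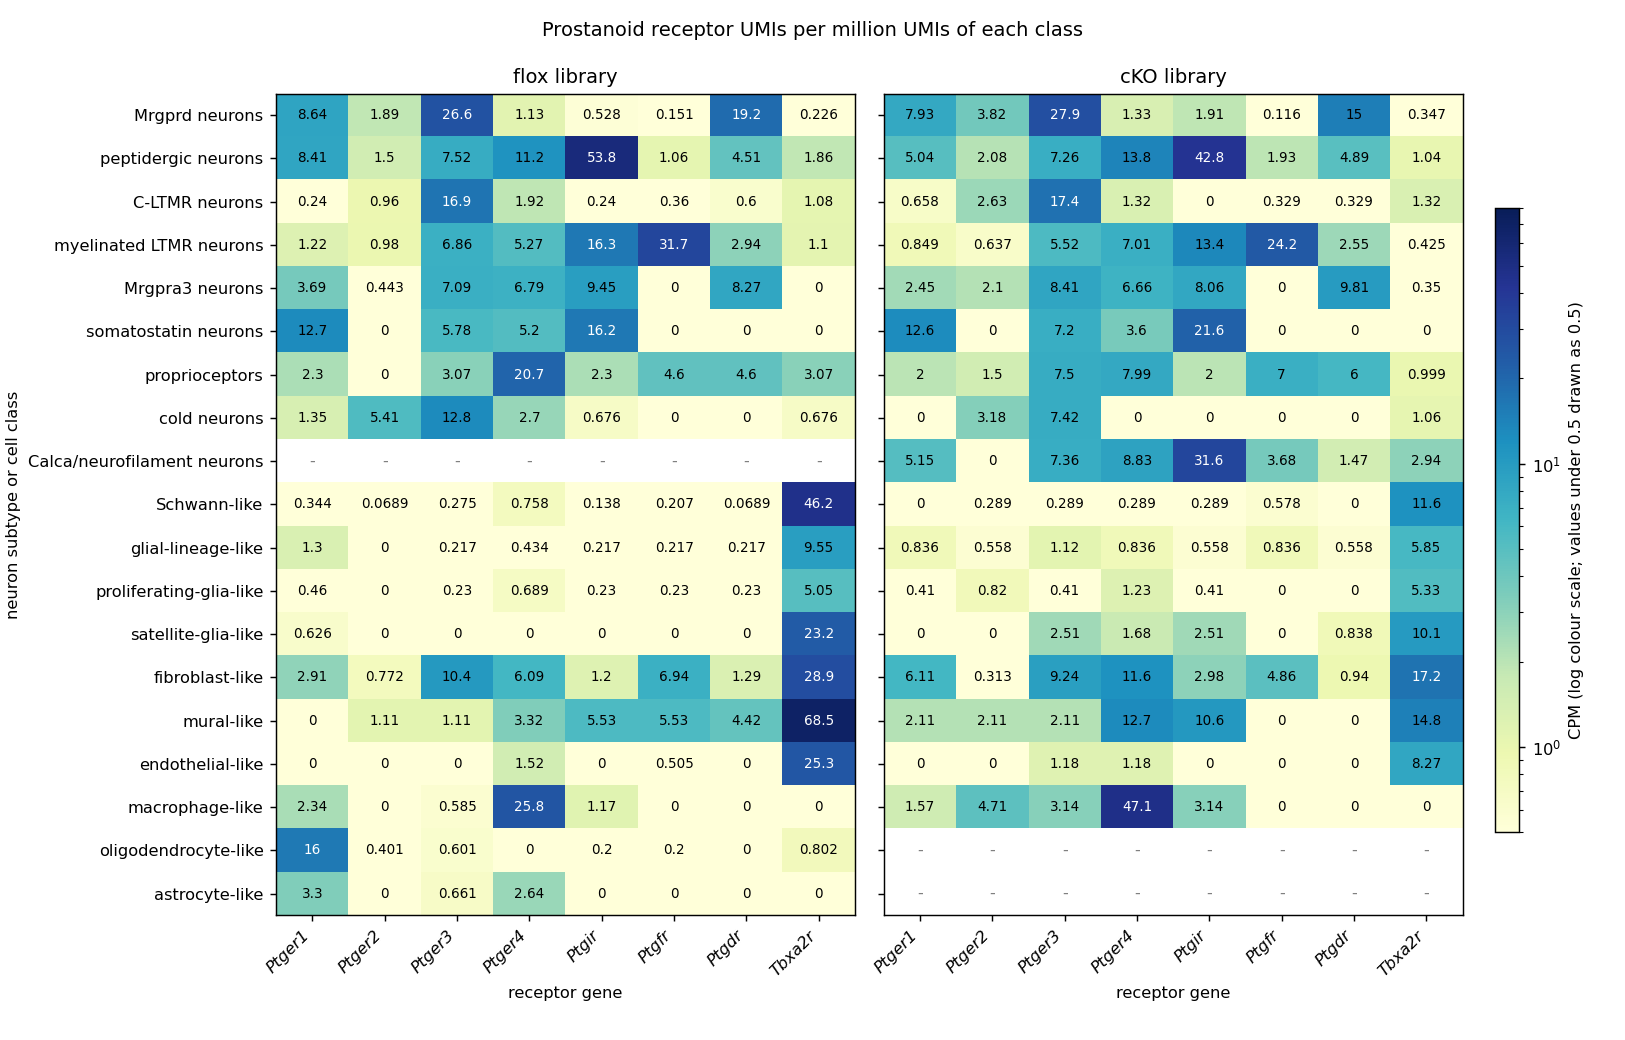
Level of each receptor gene (columns) in each neuron subtype and cell class (rows), in CPM on a log colour scale, in the flox (left) and cKO (right) library; dashes mark classes with under 20 cells. Ptger3 and Ptgdr lead in Mrgprd neurons, Ptgir in peptidergic neurons, Ptgfr in myelinated low-threshold mechanoreceptors, Ptger4 in macrophage-like cells, and Tbxa2r outside the neurons.

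Ptger3, the EP3 receptor, was highest in unmyelinated neurons among the named classes and subtypes. In non-peptidergic Mrgprd neurons, skin-innervating nociceptors named by the receptor Mrgprd, it stood at 26.6 CPM (24.6 to 28.6, 704 UMIs) in the flox library and 27.9 CPM (25.5 to 30.5, 482 UMIs) in the cKO library. In C-low-threshold mechanoreceptors, unmyelinated touch neurons led here by Tafa4 and Zfp521, it stood at 16.9 CPM (14.2 to 20.0) and 17.4 CPM (13.1 to 22.8). Mrgprd neurons thus ranked above all other classes of at least 50 cells in both libraries, and their interval did not reach that of the C-low-threshold mechanoreceptors. Ptger3 was at 7.52 and 7.26 CPM in peptidergic, 7.09 and 8.41 CPM in Mrgpra3 and 6.86 and 5.52 CPM in myelinated low-threshold neurons, whose intervals overlapped one another. Cold neurons, marked by the cold channel Trpm8, held 12.8 CPM (7.73 to 20.0) and 7.42 CPM (2.98 to 15.3). Fibroblast-like cells held 10.4 CPM (8.61 to 12.4) and 9.24 CPM (7.03 to 11.9). Their cluster led by Dcn, Apod and Ccl11, described below, stood above the Mrgprd neurons in the flox library.

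A Ptger3 UMI was found in 357 of 515 flox Mrgprd neurons (69.3%, 65.1 to 73.3) and in 265 of 540 cKO Mrgprd neurons (49.1%, 44.8 to 53.4). These neurons had medians of 54777 and 31416 UMIs. With every Mrgprd neuron thinned to 5000 UMIs, which left out 16 flox and 48 cKO neurons, the shares were 11.4% and 8.33%. In Schwann-like cells, at medians of 7063 and 4136 UMIs, 4 of 1797 flox (0.223%) and 1 of 753 cKO cells (0.133%) had a Ptger3 UMI, a class taken here to lack the neuronal receptors. A group of neurons of low depth led by the long non-coding RNA Snhg11 held more, 54.7 CPM (42.9 to 68.6) in 153 flox cells of median 7925 UMIs and 87.2 CPM (48.8 to 144) in 45 cKO cells of median 2444 UMIs. A small Mrgprd sub-cluster with Miat and Grik1 among its leading genes reached 96.1 CPM (71.1 to 127, 45 flox cells) and 132 CPM (63.5 to 244, 11 cKO cells). Sub-clusters were drawn from all neuron-like cells, the Snhg11 group included, so these values may share cells. The use of introns in counting is not stated, and its part in these levels was not tested.

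Ptger1, the EP1 receptor, was spread over nociceptors. Its level was 8.64 CPM (7.56 to 9.84, 229 UMIs) in flox and 7.93 CPM (6.66 to 9.38, 137 UMIs) in cKO Mrgprd neurons. Somatostatin pruriceptors, itch neurons, held 12.7 CPM (7.97 to 19.2) and 12.6 CPM (5.06 to 25.9) in 47 and 23 cells. Both pairs overlapped. Within the peptidergic nociceptors, which carry Calca and Tac1, 2 deep sub-clusters differed in Ptger1. It stood at 13.1 CPM (9.69 to 17.3) and 15.8 CPM (9.39 to 25.04) in the sub-cluster led by Cartpt, Gal, Tac1 and Calca with Trpv1 (77 and 50 cells), and at 6.13 CPM (4.47 to 8.20) and 2.99 CPM (1.64 to 5.02) in the one led by S100a13, Cartpt and Hopx (137 and 174 cells). The intervals of these sub-clusters did not overlap in either library. Outside neurons, Ptger1 was at 16.0 CPM (12.7 to 20.0, 80 UMIs) in the oligodendrocyte-like cells of the flox library, in 56 of 593 cells (9.44%), against 5 of 1797 flox Schwann-like cells (0.278%) at nearly the same median depth, 7056 and 7063 UMIs. Those of the cluster led by the mature myelin genes Mag and Mobp held 20.6 CPM (15.8 to 26.3), and the younger ones led by Bcas1, Olig1 and Olig2 held 10.0 CPM (5.72 to 16.2). How many of these UMIs belong to Ptger1 was not tested, since strand use in counting is not given.

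Ptger4, the EP4 receptor, was found in neurons, immune cells and stroma. In peptidergic nociceptors it stood at 11.2 CPM (9.37 to 13.4, 127 UMIs) and 13.8 CPM (11.1 to 16.9, 93 UMIs), with a UMI in 79 of 263 flox (30.04%) and 67 of 413 cKO neurons (16.2%), and in 6.91% and 6% at 5000 UMIs. Macrophage-like cells ranked above every other named class of at least 50 cells in both libraries, at 25.8 CPM (18.7 to 34.6, 44 UMIs) and 47.1 CPM (31.8 to 67.2, 30 UMIs). Of Ptger2, the other receptor that raises cyclic AMP on prostaglandin E2, these cells held 0 and 3 UMIs. Unnamed clusters, among them a cluster led by S100a9 and S100a8 (121 flox and 59 cKO cells), were not ranked. Together they held 26 flox and 4 cKO Ptger4 UMIs. Proprioceptors, the muscle afferents marked by Pvalb, held 20.7 CPM (13.6 to 30.1, 27 UMIs in 40 cells) and 7.99 CPM (4.57 to 12.98, 16 UMIs in 131 cells). Those intervals do not overlap, but 21 of the cKO proprioceptors came from a sub-cluster that had no flox cell. Within the sub-cluster found in both libraries the cKO level was 9.74 CPM (5.33 to 16.4), which overlaps the flox interval. A Ptger4 UMI was seen in 11 of 1797 flox (0.612%) and 1 of 753 cKO Schwann-like cells (0.133%).

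Ptger2, the EP2 receptor, had the fewest UMIs of the family, 114 in all flox and 159 in all cKO cells. Mrgprd neurons held 1.89 CPM (1.40 to 2.49, 50 UMIs) and 3.82 CPM (2.96 to 4.86, 66 UMIs). Cold neurons held 5.41 CPM (2.33 to 10.7) and 3.18 CPM (0.656 to 9.30) on 8 and 3 UMIs. Of the deep Mrgprd neurons (at least 20000 UMIs), 47 of 453 flox and 54 of 370 cKO had a Ptger2 UMI, 10.4% and 14.6%. Among Schwann-like cells of all depths 1 of 1797 flox and 1 of 753 cKO had a Ptger2 UMI. Their medians were only 7063 and 4136 UMIs, so these shares are not matched for depth. Of the 66 cKO UMIs of Mrgprd neurons, 54 lay in the sub-cluster that held 253 cKO and 55 flox cells, at 4.78 CPM (3.59 to 6.24) against 1.36 CPM (0.372 to 3.49) in its flox cells. In the sub-cluster that held 342 flox and 38 cKO cells Ptger2 was at 2.11 CPM (1.51 to 2.86) and 2.22 CPM (0.457 to 6.48), so the libraries overlapped there.

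Ptgir, the prostacyclin receptor, was highest in the peptidergic nociceptors. It stood there at 53.8 CPM (49.6 to 58.3, 608 UMIs) in flox and 42.8 CPM (38.0 to 48.1, 289 UMIs) in cKO, with up to 24 UMIs in 1 cell. A UMI was seen in 138 of 263 flox neurons (52.5%) and 120 of 413 cKO neurons (29.1%), and at 5000 UMIs in 19.8% and 18.8%. The thinned shares leave out the 46 flox and 163 cKO peptidergic neurons under 5000 UMIs, so both the cells and their depth differ from the first pair. In Schwann-like cells, 2 of 1797 flox (0.111%) and 1 of 753 cKO Schwann-like cells (0.133%) had a Ptgir UMI. Among the deepest peptidergic neurons, over 50000 UMIs, 91 of 111 flox (82.0%) and 19 of 20 cKO cells (95%) were positive. Lower levels were found in myelinated low-threshold mechanoreceptors (16.3 and 13.4 CPM), Mrgpra3 pruriceptors (9.45 and 8.06 CPM) and somatostatin pruriceptors (16.2 and 21.6 CPM on 28 and 12 UMIs). Neurons with Calca and neurofilament, named in 98 cKO and 5 flox cells, held 31.6 CPM (22.9 to 42.6) in the cKO library. Mrgprd neurons, the other large group of nociceptors, held 0.528 and 1.91 CPM. Within the peptidergic nociceptors, Ptgir was at 54.2 CPM (49.0 to 59.8) and 48.1 CPM (42.0 to 54.8) in the S100a13 and Hopx sub-cluster, and at 55.6 CPM (48.3 to 63.7) and 27.3 CPM (18.5 to 38.7) in the Cartpt and Trpv1 sub-cluster. The counting intervals of the libraries thus overlapped in the first and not in the second.

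Ptgdr, the prostaglandin D2 receptor DP1, followed Mrgprd and Mrgpra3 neurons. It stood at 19.2 CPM (17.5 to 20.9, 508 UMIs) and 14.997 CPM (13.2 to 16.9, 259 UMIs) in Mrgprd neurons and at 8.27 CPM (6.24 to 10.7) and 9.81 CPM (6.52 to 14.2) in the Mrgpra3 pruriceptors. The Mrgprd intervals of the libraries do not overlap, whereas the Mrgpra3 ones do. In the 3 largest Mrgprd sub-clusters the flox and cKO levels were 17.3 and 13.3, 17.1 and 9.44, and 26.3 and 17.2 CPM, lower in the cKO library in each, with intervals that parted in the last 2. A UMI was found in 298 of 515 flox Mrgprd neurons (57.9%) and in 179 of 540 cKO ones (33.1%), and at 5000 UMIs in 9.42% and 7.72%. Only 1 flox Schwann-like cell and no cKO one carried a Ptgdr UMI. No Ptgdr UMI was seen in somatostatin pruriceptors, which at 3 counts allows up to 1.73 and 5.40 CPM. Ptgdr2, the other prostaglandin D2 receptor, was at 0 UMIs in the neuron-like cells of both libraries, which at 3 counts allows up to 0.0441 and 0.0586 CPM.

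Ptgfr, the prostaglandin F2alpha receptor, was highest in 1 part of the myelinated low-threshold mechanoreceptors, the touch neurons with Ntrk2 or Ntrk3. In the subtype as a whole it stood at 31.7 CPM (28.0 to 35.8, 259 UMIs) and 24.2 CPM (20.0 to 29.1, 114 UMIs), in 53 of 122 flox (43.4%) and 34 of 132 cKO neurons (25.8%), or 8.55% and 6.98% at 5000 UMIs. Of Schwann-like cells, 3 of 1797 flox (0.167%) and 2 of 753 cKO (0.266%) had a Ptgfr UMI. All of these UMIs lay in the sub-cluster led by Hopx, Tesc, Pcp4l1 and Ntrk3, at 41.4 CPM (36.5 to 46.8, 93 cells) and 31.5 CPM (26.0 to 37.8, 92 cells). The sub-cluster led by Ntrk2, Lypd1 and Cbln2 held 0 Ptgfr UMIs in 29 flox and 40 cKO neurons, although their median depths were 74489 and 21125 UMIs. Ptgir went the same way, with 132 of 133 flox and 62 of 63 cKO UMIs of the subtype in the Hopx sub-cluster, whereas Ptgdr and Ptger4 were counted in both. Mrgpra3 and somatostatin pruriceptors had 0 Ptgfr UMIs in both libraries. In fibroblast-like cells Ptgfr stood at 6.94 CPM (5.51 to 8.63) and 4.86 CPM (3.30 to 6.89), with intervals that overlapped.

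Tbxa2r, the thromboxane receptor, had its highest levels in mural-like cells, Schwann-like cells and fibroblasts of the flox library. Mural-like cells, the pericytes and smooth muscle of vessels, held 68.5 CPM (52.5 to 87.9, 62 UMIs) in flox and 14.8 CPM (5.95 to 30.5, 7 UMIs) in cKO. Schwann-like cells held 46.2 CPM (42.8 to 49.8, 671 UMIs) and 11.6 CPM (8.25 to 15.7, 40 UMIs), fibroblast-like cells 28.9 CPM (25.9 to 32.1, 337 UMIs) and 17.2 CPM (14.2 to 20.8, 110 UMIs), and endothelial-like cells 25.3 CPM (18.8 to 33.3, 50 UMIs) and 8.27 CPM (3.33 to 17.05, 7 UMIs). The flox library was the higher in these 4 classes, and none of the 4 pairs of intervals overlapped. Satellite-glia-like cells, which wrap neuron cell bodies, held 23.2 CPM (16.3 to 31.9) and 10.1 CPM (5.20 to 17.6), glial-lineage-like cells 9.55 and 5.85 CPM, and proliferating-glia-like cells 5.05 and 5.33 CPM. Macrophage-like cells had a Tbxa2r UMI in 0 of 345 flox and 0 of 153 cKO cells, which allows shares of cells with a UMI of up to 0.870% and 1.96% at medians of 4669 and 3708 UMIs and sets no limit on the share of cells that express the gene. Mrgprd neurons held 0.226 and 0.347 CPM.

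**Figure D2:**
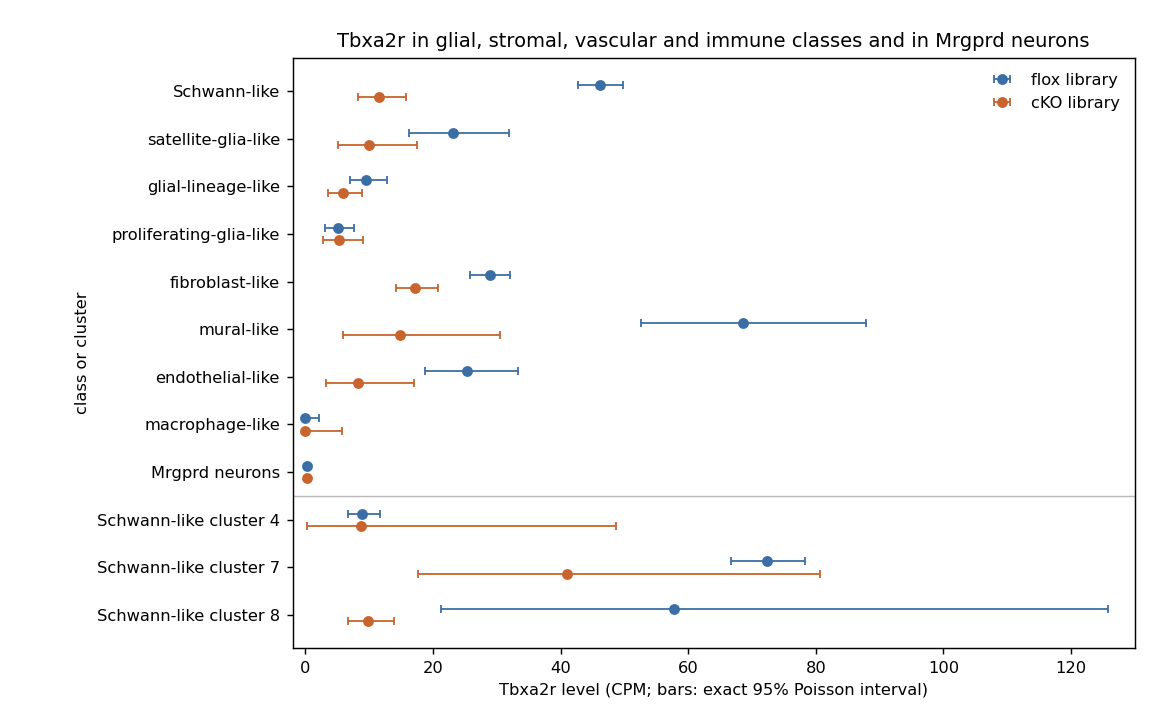
Tbxa2r level (horizontal axis, CPM) in glial, stromal, vascular and immune classes, in Mrgprd neurons and, below the line, in the 3 Schwann-like clusters; points are the flox (blue) and cKO (orange) library and bars exact Poisson intervals. Schwann-like cells stand at 46.2 in flox and 11.6 in cKO, while macrophage-like cells and Mrgprd neurons lie near 0 in both.

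The Schwann-like difference was set beside the make-up of the class, since different clusters held most of it in each library. Cluster 7, led by the myelin gene Pmp2 and by Ncmap, held 830 flox and 25 cKO cells, cluster 4, led by Pou3f1 and Egfl8, 928 and 22, and cluster 8, led by Ncmap with Pou3f1, 39 and 706. Tbxa2r stood at 72.3 CPM (66.7 to 78.2, 612 UMIs) in flox and 40.9 CPM (17.7 to 80.7, 8 UMIs) in cKO cells of cluster 7. It was at 8.91 CPM (53 UMIs) and 8.74 CPM (1 UMI) in cluster 4, and at 57.8 CPM (21.2 to 126, 6 UMIs) and 9.83 CPM (6.68 to 13.96, 31 UMIs) in cluster 8. Within clusters 4 and 7 the intervals of the libraries overlapped, and in cluster 8 they did not. Within the flox library Tbxa2r was higher in the cluster led by myelin genes than in the Pou3f1 cluster. The myelin gene Prx was at 1229 and 762 CPM in the Schwann-like cells of the flox and cKO libraries, and the part of this shift in the Tbxa2r difference was not tested.

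Depth also differed between the Schwann-like cells. A Tbxa2r UMI was found in 427 of 1797 flox cells (23.8%, 21.8 to 25.8) and 35 of 753 cKO cells (4.65%, 3.26 to 6.41). In cells of 5000 to 20000 UMIs these shares were 368 of 1324 (27.8%) and 28 of 262 (10.7%), and in cells of 1000 to 5000 UMIs 27 of 428 (6.31%) and 7 of 491 (1.43%). At 1000 UMIs per cell they were 3.73% and 0.531%. The flox share stayed above the cKO share in each of these depth ranges. The 7 other receptors had at most 11 UMIs each in Schwann-like cells of either library and none was above 0.758 CPM, which covers all 4 prostaglandin E2 receptors.

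Fibroblast-like cells fell into clusters with unlike receptors. The cluster led by Dcn, Apod and Ccl11 (258 flox and 422 cKO cells) held Ptger3 at 38.8 CPM (30.9 to 48.2) and 23.7 CPM (17.6 to 31.2), Ptger4 at 22.3 CPM (16.4 to 29.6) and 24.6 CPM (18.4 to 32.3), and Tbxa2r at 4.74 and 2.37 CPM. The cluster led by Igfbp6 and Mfap5 (494 and 373 cells) held Tbxa2r at 42.6 CPM (36.5 to 49.4) and 20.2 CPM (14.5 to 27.5), with Ptger3 at 3.63 and 2.96 CPM and Ptger4 at 4.36 and 6.42 CPM. Ptger1 was at 8.44 CPM (4.62 to 14.2) and 9.91 CPM (6.21 to 15.003) in the cluster led by Mgp, Eln and Mfap5 (189 and 379 cells). That cluster held Tbxa2r at 29.6 CPM (21.9 to 39.1) and 28.8 CPM (22.2 to 36.8). EP3 and EP4 transcripts were thus higher in the Apod and Ccl11 fibroblasts than in the Igfbp6 and Mfap5 ones, and the thromboxane receptor was lower there, in both libraries. The cluster led by Mfap4, Vtn and Cxcl12 was nearly all flox (337 and 3 cells).

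Receptors were seen in a larger share of deeper cells, which limits any reading of shares. In neuron-like cells of 1000 to 5000 UMIs, Ptger3 was found in 5.88% of 153 flox and 3.24% of 957 cKO cells, and over 50000 UMIs in 58.1% of 676 and 63.9% of 202 cells. In the range from 20000 to 50000 UMIs, the libraries lay close for 4 receptors. The flox and cKO shares there were 34.9% and 33.8% for Ptger3, 20.2% and 21.98% for Ptgdr, 18.4% and 17.7% for Ptgir, and 13.4% and 12.6% for Ptger4. The other 4 are drawn in the figure. Over all neurons of at least 20000 UMIs, where depth is not matched, Ptger1 was in 24.1% of flox and 16.7% of cKO cells. Ptger2 was in 7.10% and 9.39% of them, Ptgfr in 6.35% and 6.01%, and Tbxa2r in 3.43% and 1.58%. In the range from 5000 to 20000 UMIs, over 164 flox and 1135 cKO cells, the shares parted for Ptger3 (27.4% and 8.46%) and Ptgdr (17.1% and 7.22%). Those of Ptgir (14.02%, 9.10 to 20.3, and 9.16%, 7.55 to 10.99) and Ptger4 (7.93%, 4.29 to 13.2, and 5.29%, 4.06 to 6.75) overlapped there. Most of the unnamed cKO neurons are of this depth or lower, with a median of 5619.5 UMIs. The Ptger3-rich neurons led by Snhg11 numbered 153 in flox, at a median of 7925 UMIs, and 45 in cKO, at a median of 2444 UMIs. Their part in the shares of this range was not tested.

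**Figure D3:**
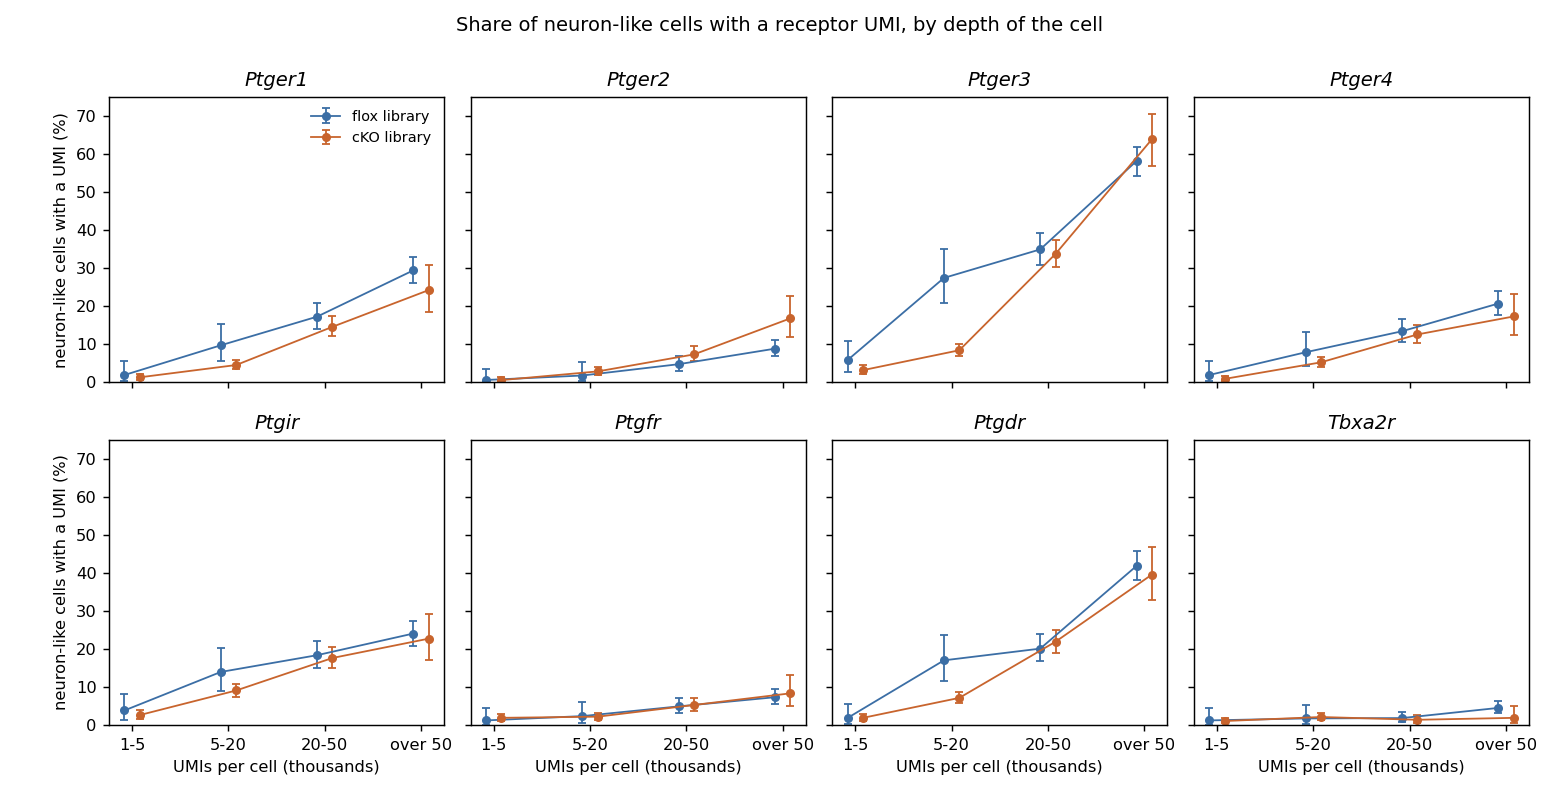
Share of neuron-like cells with at least 1 UMI of each receptor (vertical axis, percent) by UMIs per cell (horizontal axis, in units of 1000), in the flox (blue) and cKO (orange) library, with exact binomial intervals as bars. Ptger3 goes from 5.88% to 58.1% in flox and from 3.24% to 63.9% in cKO between the shallowest and deepest cells, and Tbxa2r stays near 0.

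Many single neurons carried more than 1 receptor. Of the deep Mrgprd neurons (at least 20000 UMIs), 329 of 453 flox cells (72.6%) held Ptger3 and 278 (61.4%) Ptgdr, and 207 held both. In the cKO library the counts were 238 of 370 (64.3%), 167 (45.1%) and 111. Ptgdr was thus present in 62.9% of the Ptger3-positive flox neurons against 61.4% of all of them, and in 46.6% against 45.1% in the cKO library. Of the deep peptidergic neurons, 131 of 196 flox cells (66.8%) held Ptgir and 76 (38.8%) Ptger4, and 48 held both. In the cKO library these were 85 of 149 (57.0%), 47 (31.5%) and 24. Ptgir was in 63.2% and 51.1% of the Ptger4-positive neurons, beside 66.8% and 57.0% of all of them, so the share was lower in the Ptger4-positive neurons of this subtype than in all of them. Over all deep neuron-like cells Ptgir was in 87 of 210 Ptger4-positive flox neurons (41.4%) and 44 of 129 cKO ones (34.1%). It was in 21.6% of all deep flox and 18.8% of all deep cKO neuron-like cells, so there the share was higher in the Ptger4-positive ones.

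**Figure D4:**
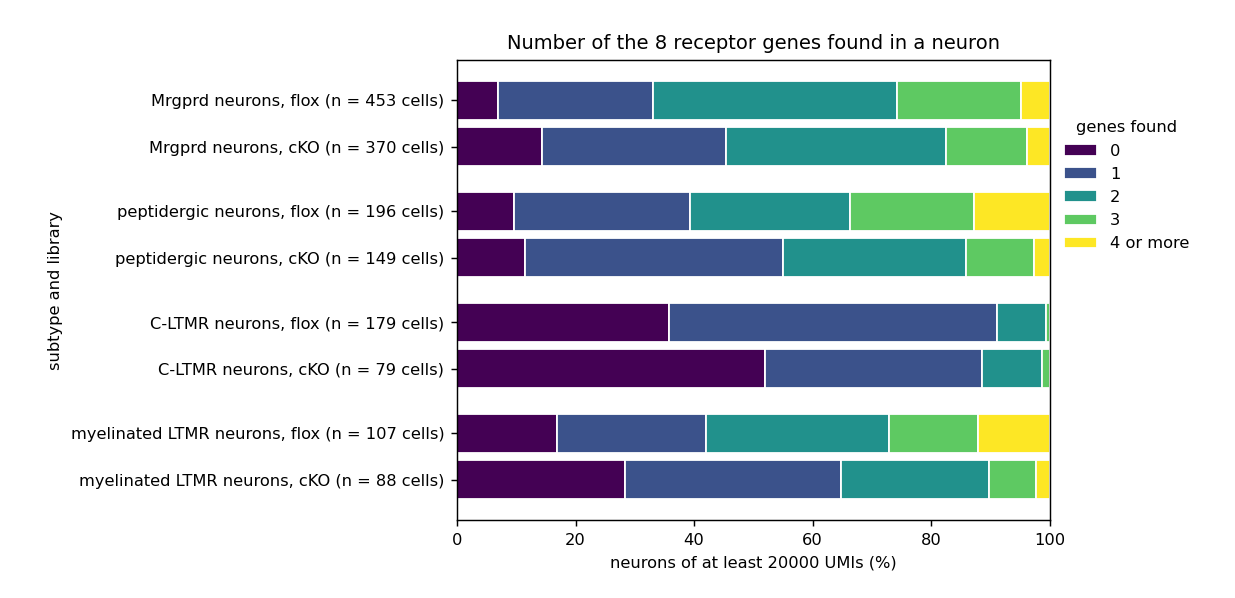
Percent of deep neurons (at least 20000 UMIs, horizontal axis) in which 0, 1, 2, 3 or at least 4 of the 8 receptor genes were found, for 4 subtypes in each library. Among Mrgprd neurons 6.84% of flox and 14.3% of cKO cells had none, against 35.8% and 51.9% of C-low-threshold mechanoreceptors.

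In all, 16.8% of 1197 deep flox neurons and 24.6% of 948 deep cKO neurons had no receptor UMI. Most positive C-low-threshold mechanoreceptors had a single receptor gene, 55.3% of 179 flox and 36.7% of 79 cKO neurons. Exactly 2 genes were found in 41.1% of flox and 37.0% of cKO Mrgprd neurons. These counts depend on depth, since deeper cells show more receptors and the flox neurons were deeper. Any UMIs of other cells, from ambient RNA or doublets left in, would raise them, and their part was not tested.

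Between genotypes, 7 of 8 receptors lay under the fold in neuron-like cells as a whole. Of the 8 receptors, all measured in neuron-like cells with at least 50 UMIs over both libraries, 1 was at least 0.5 log2 higher in the cKO library and 0 were at least 0.5 log2 lower. Among all 14980 measured genes 9.38% were that much higher and 4.33% that much lower, so the members' shares do not stand apart from the background. Their median log2 ratio (cKO over flox) was -0.12, against -0.02 for all genes. Beside Ptger2, the ratios were -0.10 (-0.24 to 0.03) for Ptger3, 0.05 (-0.19 to 0.30) for Ptger4, -0.24 (-0.47 to -0.01) for Ptger1, -0.29 (-0.44 to -0.14) for Ptgir, -0.18 (-0.36 to -0.01) for Ptgdr, -0.14 (-0.40 to 0.13) for Ptgfr and 0.33 (-0.25 to 0.90) for Tbxa2r. The 1 member past the fold, Ptger2, stood at 1.45 and 2.71 CPM, a ratio of 0.90 (0.52 to 1.29). With both libraries set to the same subtype shares its ratio was 0.44, which is under the fold. Ptger3 had ratios of -0.51 with each cell given equal weight and -0.70 with each cell thinned to 1000 UMIs (30 flox and 37 cKO UMIs left), past the fold, and 0.07 at the same subtype shares. Ptgfr turned to 0.51 and 0.99 under the first 2 of these settings, the second on 3 flox and 12 cKO UMIs.

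**Figure D5:**
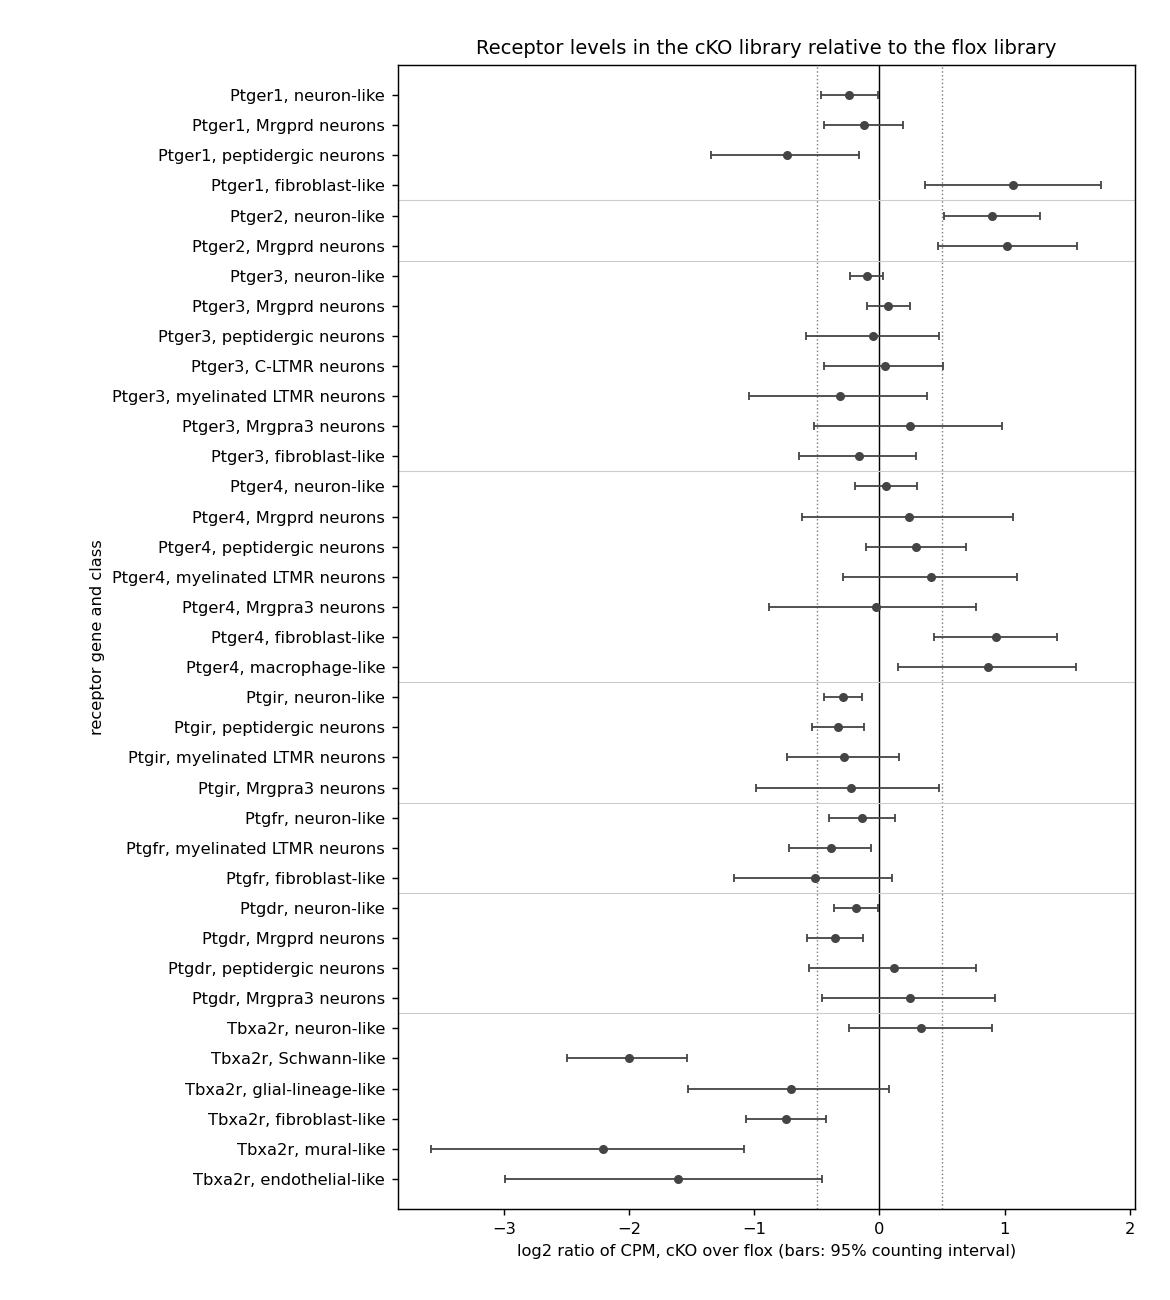
Log2 ratio of level, cKO over flox (horizontal axis), for each receptor in each named class or subtype where it had at least 50 UMIs (neurons of unnamed sub-clusters and the pooled glia are not drawn); points are ratios, bars conditional binomial intervals for counting error, and dotted lines mark 0.5 log2 either way. Tbxa2r lies at -2.0 in Schwann-like and -2.21 in mural-like cells, and the Ptger3 points within 0.5 of 0 in the classes drawn.

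Within subtypes few receptors passed the fold. In Mrgprd neurons 1 of 5 measured members was higher by the fold (background 10.3%) and 0 were lower (background 6.89%). It was Ptger2, with a ratio of 1.02 (0.47 to 1.58). Ptger3 was at 0.07 (-0.10 to 0.24), or -0.65 with each cell thinned to 1000 UMIs (15 flox and 10 cKO UMIs left), and Ptgdr at -0.35 (-0.58 to -0.14). When each cell was given equal weight, the Ptgdr ratio was -0.73. In peptidergic nociceptors 1 of 5 measured members was lower (background 6.66%) and 0 were higher (background 7.21%). The lower one was Ptger1, at 8.41 CPM (6.80 to 10.3) against 5.04 CPM (3.49 to 7.04), a ratio of -0.74 (-1.35 to -0.16). The Ptger1-rich sub-cluster led by Cartpt and Gal made up 77 of 263 flox and 50 of 413 cKO peptidergic neurons. Ptgir was at -0.33 (-0.54 to -0.13) there, and its ratio ran from -0.91 to 0.26 under other settings. No member passed the fold among the 4 measured in myelinated low-threshold mechanoreceptors (background 7.17% higher and 6.2% lower), the 4 in Mrgpra3 pruriceptors (9.95% and 8.59%) or the 1 in C-low-threshold mechanoreceptors (5.85% and 8.76%), and Ptgfr was at -0.39 (-0.72 to -0.07) in the first of these, or 0.87 at Leiden resolution 2.0, where clusters are finer. Other settings took several of these members past the fold. With each cell given equal weight, Ptgir was at -0.89 and Ptger3 at -0.81 in the myelinated subtype, Ptger3 at 1.20 in peptidergic neurons and Ptger4 at 1.07 in Mrgprd neurons. In Mrgpra3 pruriceptors Ptger3 was at 0.84 and Ptgir at -1.01 at Leiden resolution 2.0, and Ptgdr at 0.75 with doublets kept, while the stricter cell filter left only 14 Ptger4 and 4 Ptgir UMIs, both at 1.21. Thinning to 1000 UMIs gave the ratios farthest from the main values, -2.70 for Ptgir in the myelinated subtype, -2.07 for Ptger1 in Mrgprd and 2.16 for Ptger3 in peptidergic neurons, on 7, 5 and 8 UMIs. Among neurons of unnamed sub-clusters, 3 of 6 measured members were lower (background 35.9%) and 1 was higher (background 13.7%). Lower were Ptgir, at 26.4 and 8.35 CPM with a ratio of -1.66 (-2.13 to -1.19), Ptger3, at 17.9 and 9.20 CPM with a ratio of -0.96 (-1.48 to -0.42), and Ptger1, with a ratio of -0.83 (-1.56 to -0.05). Ptgfr was the higher one, at 0.58 (-0.57 to 1.97) on 7 and 50 UMIs. These sub-clusters held 1456 of the 3040 cKO neurons and were mostly made of 1 library each, so cell make-up and genotype cannot be told apart there.

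Outside neurons, Tbxa2r was lower in the cKO library in every class with at least 50 of its UMIs. It was 1 of 1 measured members lower in Schwann-like cells (background 15.9% lower and 14.2% higher), mural-like cells (26.1% and 16.4%), endothelial-like cells (25.3% and 18.8%) and glial-lineage-like cells (18.1% and 9.49%). The ratio was -2.0 (-2.50 to -1.54) in Schwann-like cells, where Ptges3 itself was at -1.02 (-1.17 to -0.87). It was -2.21 (-3.58 to -1.08) in mural-like cells and -1.61 (-3.00 to -0.46) in endothelial-like cells, classes in which Ptges3 was higher in the cKO library (0.58 and 0.62). In endothelial-like cells the ratio was -0.45 with each cell given equal weight, so the fold was not passed. In glial-lineage-like cells it was -0.71 (-1.53 to 0.07), an interval that spans 0, and -0.23 with each cell thinned to 1000 UMIs (9 and 10 UMIs left). Different clusters held this class in each library, cluster 0 with 79 flox and 1271 cKO cells and cluster 3 with 929 and 42, at 4.70 and 5.81 CPM and at 9.79 and 7.02 CPM, with 1 UMI in the smaller part of each. Over all peripheral glia together, of which Schwann-like cells were a larger part in flox (22.2% against 9.57% of all cells), 774 flox and 86 cKO UMIs gave 30.9 and 8.05 CPM and a ratio of -1.94 (-2.28 to -1.62), with a background of 14.6% lower and 14.1% higher.

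In fibroblast-like cells 2 of 5 measured members were higher by the fold (background 8.03%) and 2 were lower (background 18.3%). Higher were Ptger1, at 2.91 CPM (2.02 to 4.07) and 6.11 CPM (4.34 to 8.35), ratio 1.07 (0.37 to 1.77), and Ptger4, at 6.09 CPM (4.75 to 7.68) and 11.6 CPM (9.10 to 14.6), ratio 0.93 (0.44 to 1.42). Lower were Tbxa2r, ratio -0.75 (-1.07 to -0.43), and Ptgfr, ratio -0.52 (-1.16 to 0.10). Clusters of this class differed in size between the libraries. Within the Igfbp6 and Mfap5 cluster Tbxa2r was at 42.6 and 20.2 CPM, a pair that does not overlap. Within the Apod and Ccl11 cluster Ptger4 was at 22.3 and 24.6 CPM, and within the Mgp and Eln cluster Tbxa2r was at 29.6 and 28.8 CPM, pairs that overlap. Without the cluster found nearly only in the flox library the ratios of Ptger1, Ptger4 and Ptgfr were 0.56, 0.50 and -0.26. With each cell thinned to 1000 UMIs the Ptger1 ratio turned to -0.47, on 9 flox and 6 cKO UMIs. In macrophage-like cells 1 of 1 measured members was higher (background 12.7% higher and 21.3% lower), Ptger4 with a ratio of 0.87 (0.15 to 1.57), which turned to -0.15 with thinning, on 10 and 4 UMIs.

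The genes on either side of the receptors were read in the same neuron-like cells from lists of prostanoid synthesis, transport and signalling. Of 9 measured synthesis genes, 5 were higher by the fold and 0 lower, with a median log2 ratio of 0.50 against -0.02 for all genes, of which 9.38% were higher and 4.33% lower. Within the larger subtypes the medians lay below 0, at -0.22 in Mrgprd (1 of 6 measured genes higher and 2 lower), -0.23 in peptidergic (1 and 2 of 6), -0.32 in Mrgpra3 (1 and 2 of 6), -0.19 in C-low-threshold (0 and 1 of 5) and -0.21 in myelinated low-threshold neurons (0 and 1 of 5). Among the unnamed sub-clusters, in the cKO library mainly, were one led by the stromal genes Mgp and Col1a1 and one led by the macrophage genes Pf4 and C1qa, and their part in the neuron-like ratio was not tested. The 5 were Ptges3, Ptges, Ptgds, Hpgds and Ptgis, and 4 of them were at most 7.63 CPM in neurons. Ptgis, prostacyclin synthase, had 28 and 53 UMIs (0.411 and 1.03 CPM, ratio 1.33), while Cbr1, a carbonyl reductase, was at 158 and 123 CPM (ratio -0.36). Classes other than neurons held these enzymes at higher levels. Macrophage-like cells had Ptgs1, cyclooxygenase 1, at 119 and 84.7 CPM, Hpgds, a prostaglandin D synthase, at 278 and 242 CPM, and Tbxas1, thromboxane synthase, at 80.2 and 59.6 CPM. Ptgis was at 63.6 and 66.1 CPM in fibroblast-like cells, and at 169 CPM (143 to 198) and 16.9 CPM (7.30 to 33.3) in mural-like cells, where Tbxa2r was also lower in cKO. Ptgs2, cyclooxygenase 2, was at 117 and 25.4 CPM in those mural-like cells, whose medians were 4719.5 and 2240.5 UMIs.

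Fewer of the genes of transport and signalling passed the fold than of the synthesis genes. Among all measured genes of neuron-like cells 9.38% were higher by the fold and 4.33% lower. Lists this short can hold 0 or 1 such genes at those shares, so the counts that follow are description only. Of 6 genes of transport and breakdown 1 was higher, Hpgd, the enzyme that inactivates prostaglandins (1.06 and 1.80 CPM, ratio 0.76), and 0 were lower. The transporter Slco3a1 was at 41.4 and 43.4 CPM, and the reductase Ptgr2 at 16.3 and 16.0 CPM. Of 12 G protein alpha subunits 0 passed the fold (median -0.08). Gnas, the stimulatory subunit through which EP2, EP4, IP and DP1 signal, stood at 1890 and 1824 CPM, Gnao1 at 664 and 700 CPM, Gnaz at 80.05 and 84.8 CPM and Gnai2, an inhibitory subunit, at 423 and 353 CPM. Of 8 measured adenylyl cyclases (median -0.10), 17 cyclic AMP effectors (median 0.11) and 8 genes of the phospholipase C arm (median -0.06), 0 passed it.

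Among cyclases Adcy5 was at 32.5 and 29.4 CPM and Adcy1 at 31.5 and 31.3 CPM, with Adcy9 the lowest ratio (-0.29) and Adcy7 the highest (0.08). Among effectors Prkar1a and Prkar1b, regulatory subunits of protein kinase A, were at 283 and 300 CPM and 189 and 202 CPM, with ratios that ran from -0.18 (the anchor Akap6) to 0.46 (the coactivator Crtc1). Protein kinase C genes Prkce and Prkca were at 236 and 239 CPM and 227 and 221 CPM, with Itpr3 at 0.39 and Plcb1 at -0.21. Of 6 measured desensitization genes 1 was higher, the receptor kinase Grk2, at 94.1 and 135 CPM (ratio 0.52, 0.47 to 0.57), and 0 were lower, with Grk6 at -0.12 and Arrb1, an arrestin, at 50.1 and 51.8 CPM.

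The genes whose levels ran most like each receptor were found over 13 classes and subtypes that had at least 50 cells in both libraries, by Pearson's r of log2(CPM + 5) within each library among 13210 genes. These points share library and depth, and the values describe these data with no test. Rspo2, a Wnt pathway agonist, was most like Ptger3 (r = 0.99 in flox and 0.94 in cKO), and Nipal2 was also near the top. Scube2 was most like Ptgdr (0.95 and 0.96), followed by Tmem79 and the Gq family subunit Gna14. Mdga1 was most like Ptgfr (0.97 and 0.92, then Cdh3 and Plaat1), Ctxn2 most like Ptgir (0.90 and 0.91, then the potassium channel subunit Kcns2 and Stxbp5l), and Sept11 most like Tbxa2r (0.93 and 0.94, then Lzts2 and Phldb2). March1 led for Ptger4 (0.89 and 0.83, then complement gene C2 and Zfp992), Abr for Ptger2 (0.83 and 0.85, then the channel gene Trpv2 and Grk3) and Prr16 for Ptger1 (0.76 and 0.82, then Cd44 and C8g). The leading r was at least 0.90 in both libraries for Ptger3, Ptgdr, Ptgfr, Ptgir and Tbxa2r, and lower for Ptger1, Ptger2 and Ptger4.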

How the data were processed

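Dorsal root ganglion cells were measured in 1 flox and 1 cKO library. The authors deposited whole-number UMI counts per gene and barcode (10014 flox and 9703 cKO barcodes, 132620886 and 78144437 UMIs). The submitters' processing notes list Cell Ranger 5.0.1, Scanpy and mm10, whereas the file headers name cellranger 6.1.2. The use of introns or strand in counting and any removal of ambient RNA are not stated in those sources.

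Barcodes passed (8714 and 8435) with 1000 or more UMIs, 500 or more genes and no more than 15% of UMIs from mitochondrial genes. Scrublet called 0 and 5 doublets, under 0.5%, so instead the top-scoring cells were taken out at a rate of 0.8% per 1000 (6.97%, 607, in flox and 6.75%, 569, in cKO). Each cell was scaled to 10000 counts and log-transformed. Clusters came from 2000 variable genes without the receptors and Ptges3, 30 components (20 for neurons), 15 neighbours and Leiden resolution 1.0 (seed 0), without integration, so a cell type can split by library. There were 33 clusters (4 unnamed) and 34 neuron sub-clusters (15 unnamed), giving 12 classes and 9 subtypes.

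Markers had to lie, after adding 10 CPM, 1 log2 above the 25th percentile of clusters and be seen in 25% of cells, and a name needed 3 of them with 1 among the top 10 genes. Clusters with 75% of an unlike class's markers stayed unnamed. This naming rule was set after seeing the data, and the members and lists were chosen with earlier results of these data known.

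UMIs were summed per class and library. Levels have exact Poisson intervals, shares Clopper-Pearson and ratios conditional binomial intervals at 95%. A count of 0 allows up to 3 counts. A gene was measured with 50 UMIs over both libraries and called at 0.5 log2. Neurons were thinned to 5000 and other cells to 1000 UMIs. Besides the 8 receptors and Ptges3, the rule named the 3 genes most like each receptor and, from each pathway list, the genes of highest and lowest ratio and the 2 of highest level in neurons. Of these and of the leading genes of clusters, some are not reported here. The ratio intervals were tested on simulated independent Poisson counts, the model they assume. That test cannot show how they do where the UMIs of a gene gather in few cells. Gene positions came from GENCODE vM21 (32158 of 32285 identifiers found). Alternatives used edgeR TMM factors, cell means, thinning, other filters and other resolutions. Clustering used scanpy 1.11.5 with leidenalg 0.10.2, scikit-learn 1.9.0 and igraph 0.11.9. Sums and intervals used scipy 1.17.1, numpy 2.4.6 and pandas 2.3.3 under Python 3.11.15, TMM used edgeR 4.0.16 under R 4.3.3, and plots matplotlib 3.10.9.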

Additional observations from a re-analysis of the deposited data

Results flagged for a closer look

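Ptger1 went in opposite directions between genotypes in different classes. Its log2 ratio (cKO over flox) was 1.07 in fibroblast-like cells and -0.74 in peptidergic nociceptors. The difference between these ratios was not tested, because each rests on 1 library per genotype.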

How the results depend on the processing

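The count of receptors at least 0.5 log2 higher in cKO neuron-like cells, 1 of 8, was 3 with the mean of each cell's CPM, 3 with each cell thinned to 1000 UMIs (11 to 67 UMIs left per receptor, 0 of them flox for Ptger2), 0 with standardised subtype shares and 0 at a fold of 1 log2. The count lower, 0, was 1 with the mean of each cell's CPM and 1 with thinning. TMM factors, keeping doublets, a filter of 2000 UMIs and 10% mitochondrial UMIs, Leiden resolutions 0.5 and 2.0, a minimum of 20 UMIs and, added after seeing the data, neurons of at least 10000 UMIs or without cluster 22 gave 1 and 0 again.

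With thinning to 1000 UMIs, the Ptger1 ratio in fibroblast-like cells was -0.47 and the Ptger4 ratio in macrophage-like cells -0.15, both opposite in sign to the main values. The cause was not tested. Of 277 alternative ratios for 37 values, 234 lay within the main counting interval. Among the alternatives 37 ratios had the opposite sign to their main value, 2 of them where the main value was past the fold. Of 25 values under the fold, 20 passed it in at least 1 alternative, and of 12 past it 6 fell under it or changed sign in at least 1. Thinning left fewer than 50 UMIs for 33 of the 37 values. The Tbxa2r ratio in Schwann-like cells ran from -2.10 to -1.77 and in mural-like cells from -2.40 to -2.05. Shares of positive cells moved with every change of thinning depth to 1000 UMIs (16 of 16) and in 11 of 16 cases at 10000 UMIs. Receptors were seen in smaller shares of shallow cells, which limits the cKO neurons. No paired analysis was possible because there was 1 library per genotype.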
